A study of Homo sapiens with 6 samples.

Results

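The 2 mature arms of the human miR-21 hairpin, hsa-miR-21-5p and hsa-miR-21-3p, were taken by name from a table of 2588 miRs. Both names were found, and each had reads in all 6 libraries. The small RNA libraries came from HEK293T, a human embryonic kidney cell line, with 3 libraries after RPL24 knock-down (RPL24 KD) and 3 negative controls (NC). The RPL24 KD cells received 50 nM of siPOOLs (complex siRNA pools) against RPL24, a protein of the large ribosomal subunit, and the NC cells received 50 nM of non-targeting siPOOLs. Harvest followed at 72 h for both groups. The labels also describe, for every sample, a miR-608 plasmid given at 48 h, 24 h before harvest, although hsa-miR-608 had 0 counts in each library. The study described the sequencing as a separate knock-down experiment. It reported no miR-608 there because HEK293T cells do not express this miR. Whether these cells received the plasmid is therefore not certain. No label says that the libraries of a group came from separate cultures, so the p-values measure the spread between these libraries, which may be technical.

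MiR-21 is made from a primary transcript that the nuclease Drosha cuts to a hairpin and Dicer cuts to a duplex of its arms. One arm, the guide, is kept in the silencing complex, and the other, the passenger, is mostly degraded. For miR-21 the guide is the 5p arm. It is among the best known oncogenic miRs, is high in many tumors, and represses tumor suppressors such as PDCD4. Its hairpin is also a known case in which SMAD proteins recruit DDX5 (also called p68), an RNA helicase of the large Drosha complex, to speed the first cut. The study asked whether RPL24 takes part in miR processing, and it addressed DDX5 as a partner of RPL24.

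The hairpin gene MIR21 lies on the plus strand of chromosome 17 of GRCh38, at chr17:59841266-59841337. In GENCODE release 29 it falls inside the gene VMP1 and in an exon of 1 of its 17 transcripts, a non-coding retained-intron transcript. It starts 174 bases beyond the end of the protein-coding VMP1 transcripts. The sequences below are those of RefSeq on GRCh38.p14, written as RNA from 5′ to 3′. The hairpin is shown because it carries both arms in 72 bases, and the capitals mark the 5p arm, bases 8 to 29.
MIR21 hairpin: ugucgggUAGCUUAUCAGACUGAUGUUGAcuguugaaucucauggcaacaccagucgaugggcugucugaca

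The guide is shown beside the other mature miR of its seed, since bases 2 to 8, in capitals here, choose the targets. Of the mature sequences in the RefSeq table, 2 shared the seed AGCUUAU.
hsa-miR-21-5p: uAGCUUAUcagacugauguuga
hsa-miR-590-5p: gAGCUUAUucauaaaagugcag

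Outside the seed these 2 miRs differ, and no other mature sequence in that table, which matched 2281 of the 2588 names, came within 5 edits of miR-21-5p. The nearest, hsa-miR-217-5p, was 7 edits away.

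Depth ranged from 406905 to 611745 counts among RPL24 KD libraries and from 398721 to 565104 among NC libraries. A count of 3, the floor used here, corresponded to between 4.99 and 7.52 CPM (counts per 1000000 of the normalized total over tested miRs). The Poisson and exact intervals and the floors given here cover counting error only, and reads without molecular identifiers are not independent molecules. The intervals of the edgeR and limma fits also hold the spread between libraries. No single miR defines HEK293T, but 6 miRs known to be abundant in this line, of the miR-10, miR-17-92 and miR-196 families, were all past the filter and summed to between 241708 and 262378 CPM in NC and between 260487 and 268819 CPM in RPL24 KD. A list of 12 miRs of liver, blood, muscle, neurons and stroma summed to between 375 and 525 CPM in NC and between 271 and 306 CPM in RPL24 KD, so that it was higher in each NC library. Most of those reads were of the muscle miR hsa-miR-1-3p, while the blood miRs hsa-miR-223-3p and hsa-miR-150-5p and the muscle miR hsa-miR-206 had 0 counts throughout. The part of this difference in the results was not tested.

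The guide arm miR-21-5p was an abundant miR and lay slightly higher in each RPL24 KD library than in any NC library. This difference of 1.10-fold did not pass the test over all miRs. In NC it had 6828, 4741 and 6015 reads (replicate 1, replicate 2 and the unnumbered library), and in RPL24 KD 7078, 7935 and 5011. Scaled to the normalized library totals, these were 11944, 11852 and 11403 CPM in NC and 12943, 13203 and 12553 CPM in RPL24 KD. The lowest RPL24 KD library thus lay above the highest NC library, and the groups did not overlap.

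The same order was seen before any scaling other than the library total, where miR-21-5p took from 1.17% to 1.21% of all counts in NC and from 1.23% to 1.30% in RPL24 KD. Mean levels were 11733 ± 289 CPM in NC and 12900 ± 327 CPM with RPL24 KD (both SD, n = 3). The log2 fold change was 0.14 with a standard error of 0.0546, which is 1.10-fold with a 95% interval from 1.01 to 1.19. With edgeR's quasi-likelihood test, the p adjusted by Benjamini-Hochberg over 360 miRs was 0.145, and unadjusted it was 0.0250. DESeq2, which called 3.89% of the same miRs, gave 0.14 with an adjusted p of 0.243. An exact two-sided permutation test of the 6 libraries gave p = 0.1, the smallest that this design allows.

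A lack of overlap between the groups was common. It was seen in 27.5% of the 360 miRs tested, while 5.00% passed an adjusted p under 0.05, 3.33% higher and 1.67% lower (12 and 6 miRs, which became 10 and 18 with total counts). By p-value, miR-21-5p was number 62 of 360, and it was among the 85 with an unadjusted p under 0.05. An increase beyond 1.19-fold, the upper bound, lay outside the unadjusted interval. The size depended on the scaling: it was 0.09 on the log2 scale (adjusted p = 0.371, edgeR) with total counts, where the median of all miRs moved from -0.01 to -0.06. In RNA from whole cultures, a change in the number of cells that make a miR and a change in its amount per cell cannot be told apart.

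**Figure D1:**
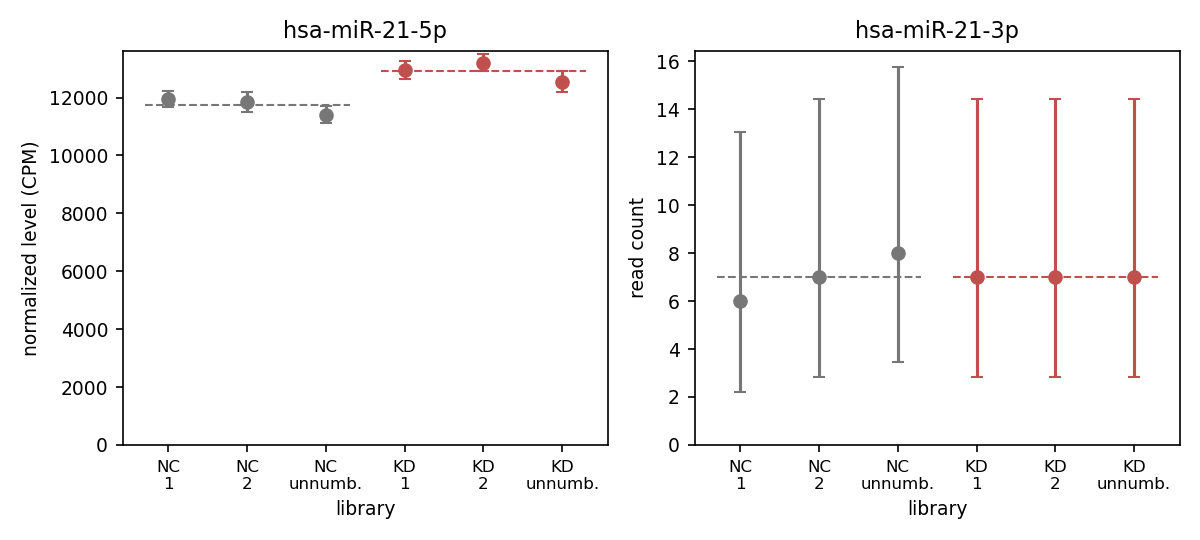
Levels of the miR-21 arms in each library, with miR-21-5p in CPM on the left and miR-21-3p in read counts on the right; points are libraries, bars are 95% Poisson intervals and dashed lines are group means (NC grey, RPL24 KD red). The 5p arm lay between 11403 and 11944 CPM in NC and between 12553 and 13203 CPM in RPL24 KD, while the 3p arm had 6 to 8 reads in every library.

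The spread of miR-21-5p among replicates was small. Its coefficient of variation was 2.46% in NC and 2.54% in RPL24 KD, where counting alone would give 1.31% and 1.22%. The standard deviation within groups was 0.036 on the log2 scale, against a median of 0.108 among 166 miRs averaging 100 counts or more, and 6 of these 166 varied less. Counting error falls as level rises, and miR-21-5p was not compared with miRs of like level alone. By mean level miR-21-5p was number 21 of the 360 tested miRs, and it ranked from 20 to 22 within each library. A read covers a whole mature miR, so that these levels were not divided by length, but reads of different miRs need not stand for equal numbers of molecules.

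Its neighbours in level were the let-7 miRs hsa-let-7a-5p, number 20, and hsa-let-7g-5p, number 22, members of a family known to restrain growth. They had means of 12621 and 11993 CPM, with ranges over the 6 libraries of 10706 to 14007 and 11409 to 12774 CPM, which overlap the range of miR-21-5p, 11403 to 13203 CPM. The 3 miRs could therefore not be ordered beyond their spread. Their log2 fold changes were 0.22 for let-7a-5p (adjusted p = 0.0729, edgeR) and -0.08 for let-7g-5p (adjusted p = 0.421, edgeR).

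The tested miRs whose course over the 6 libraries was most like that of miR-21-5p were sought by the root mean square difference of log2 CPM, each miR taken from its own mean. They were hsa-miR-423-3p with 0.023, hsa-miR-10b-5p with 0.028 and hsa-miR-30d-5p with 0.036, where the median over the 359 other miRs was 0.198. All 3 were more abundant than miR-21-5p, with means of 18674, 22009 and 22940 CPM. None of them was called, and their log2 fold changes were 0.09, 0.16 and 0.09, with adjusted p-values of 0.315, 0.0652 and 0.337 (edgeR). Likeness was measured over both groups, so fold changes near that of miR-21-5p follow from the choice and are not a separate result.

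The passenger arm miR-21-3p was present in traces and showed no difference that this depth could detect. It had 6, 7 and 8 reads in the NC libraries 1, 2 and unnumbered, and 7 reads in each RPL24 KD library. That is 42 reads over all libraries, above the floor of 3 counts in each. In normalized counts it had 10.5, 17.5 and 15.2 CPM in NC and 12.8, 11.6 and 17.5 CPM in RPL24 KD. The groups overlapped.

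Mean levels of miR-21-3p were 14.4 ± 3.57 CPM in NC and 14.0 ± 3.12 CPM with RPL24 KD (both SD, n = 3). The filter on low counts (a minimum count of 10) removed it, so that it was tested only in a fit of all 1205 miRs with at least 1 read, of which 2.57% were called. There its log2 fold change was -0.03 with a 95% interval from -0.92 to 0.85 (adjusted p = 0.996, edgeR), and the sign turned without RPL24 KD replicate 1 (0.012), RPL24 KD replicate 2 (0.089), NC replicate 2 (0.10) or the unnumbered NC library (0.030). Pooled over the libraries, 21 reads stood against 21, a ratio of rates of 0.937 with an exact 95% interval from 0.487 to 1.80, which compares these libraries and not the conditions. A fall to 0.487 of the control or a rise of 1.80-fold was therefore within the counting error. The tested miRs most like miR-21-3p were hsa-miR-193b-3p (root mean square difference 0.131), hsa-miR-95-3p (0.144) and hsa-miR-18a-5p (0.149), beside a median of 0.283, a likeness that rests on 6 to 8 reads of miR-21-3p per library.

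The balance of the arms, which needs no scaling between libraries, was strongly to the 5p side in both groups and did not differ beyond its spread. Over all libraries there were 37608 reads of the 5p arm and 42 of the 3p arm, or 895 guide reads for each passenger read. The share of the 3p arm was 0.0878%, 0.147% and 0.133% of the hairpin's reads in NC libraries 1, 2 and unnumbered, and 0.0988%, 0.0881% and 0.139% in the RPL24 KD libraries in the same order. The exact (Clopper-Pearson) 95% intervals of these shares ran from 0.0322% at the lowest to 0.304% at the highest, and all overlapped.

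The share averaged 0.123% ± 0.0311 in NC and 0.109% ± 0.0271 with RPL24 KD (both SD, n = 3). The log2 ratio of 5p to 3p reads, with 0.5 added to each count, averaged 9.60 ± 0.385 in NC and 9.77 ± 0.345 with RPL24 KD (both SD, n = 3). The difference of 0.17 gave p = 0.7 in an exact two-sided permutation test, whose smallest possible p is 0.1. It was 0.02 without NC replicate 2 and 0.39 without NC replicate 1. In a limma fit over 316 hairpins with reads on both arms, of which 0.316% were called, its 95% interval was from -0.51 to 0.84 (adjusted p = 0.940). Changes of either sign within that interval remained compatible with these libraries. The fit limited to the 74 hairpins with both arms past the filter, of which 1.35% were called, could not hold miR-21.

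Among the 107 hairpins with at least 600 reads in all and reads on both arms, miR-21 had the ratio of number 6 toward the 5p arm, and 64 of the 107 leaned to 5p. Arms were paired by name, so hairpins whose arms bear different names, such as let-7f-5p and let-7f-2-3p, were left out. Hairpins with an arm that had no reads were left out too, and these can be more one-sided than miR-21. The ranks given here therefore hold only among the 107. The median share of the minor arm was 1.89%, against 0.112% for miR-21, which was number 12 from the lowest by this share, counted over hairpins of either side. On either side of it stood hairpins of well-known guides. Toward a higher ratio these were let-7i, with a mean log2 ratio of 10.61, and miR-20a of the miR-17-92 cluster, with 10.24. Toward a lower ratio these were miR-196b of the HOXA locus, with 9.56, and miR-182 with 9.03. These are ratios of reads, and reads of arms with different sequences need not stand for equal numbers of molecules.

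**Figure D2:**
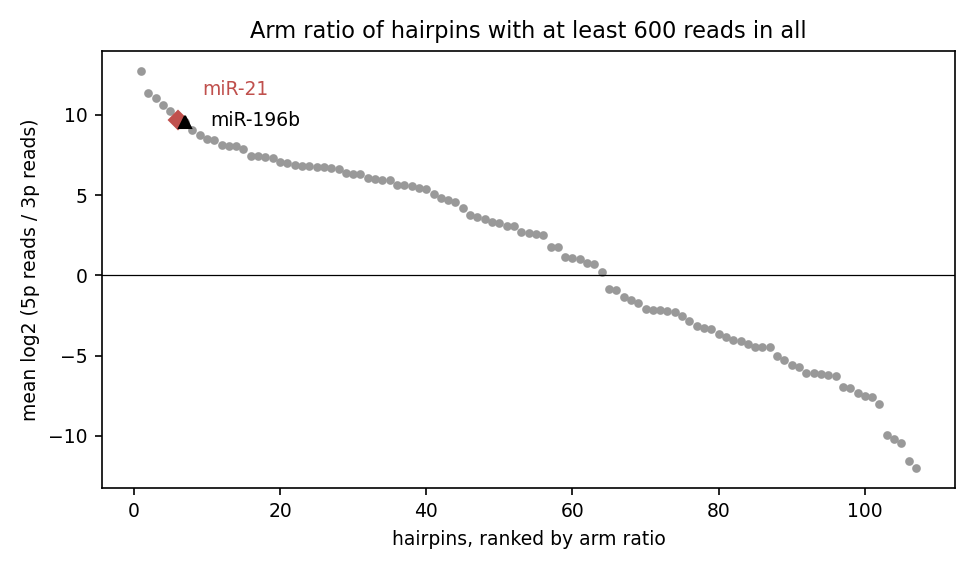
Mean log2 ratio of 5p to 3p reads over the 6 libraries for 107 hairpins, ranked from the most 5p-sided to the most 3p-sided. Each had at least 600 reads in all and reads on both arms. The red diamond is miR-21 and the black triangle miR-196b. MiR-21 stood at number 6, next to miR-196b at number 7.

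The seed mate had almost no reads. MiR-590-5p, a miR with the same seed as miR-21-5p, had 0, 1 and 1 reads in NC and 0, 1 and 0 in RPL24 KD. Names without a sequence in the RefSeq table were not searched for this seed. Of the reads under the 2 names found with the seed AGCUUAU, 37608 were miR-21-5p and 3 were miR-590-5p. The share of miR-590-5p was 0.0080%, with an exact (Clopper-Pearson) 95% interval from 0.0016% to 0.0233%. Every library held under the floor of 3 counts, so no fold change is given for it.

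In this hairpin the balance of the arms was the opposite of that in miR-21. The 3p arm, shown here with its own seed in capitals, was the abundant one.
hsa-miR-590-3p: uAAUUUUAuguauaagcuagu

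It had 57, 41 and 75 reads in NC and 54, 61 and 43 in RPL24 KD, in the order of the libraries above. Its level was 115 ± 23.8 CPM in NC and 103 ± 4.60 CPM with RPL24 KD (both SD, n = 3), and the groups overlapped. The log2 fold change was -0.17 with a 95% interval from -0.55 to 0.20 (adjusted p = 0.619, edgeR).

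The SMAD proteins bind the letters CAGAC in the stem of the miR-21 hairpin, within the guide itself. A search of the RNA strand found them at bases 9 to 13 of miR-21-5p, in capitals here.
hsa-miR-21-5p: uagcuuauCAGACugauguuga

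These letters directly follow the seed and do not overlap it. They were found in 41 of the 2281 mature sequences that matched a name in the table (1.80%) and in 123 of 1562 hairpins (7.87%). Of the 41, 5 passed the filter, and 0 of these 5 were called, where edgeR called 5.00% of all tested miRs and 2 of the 5 had an unadjusted p under 0.05, as did 85 of the 360. They were miR-21-5p itself and hsa-miR-421, which had -0.24 on the log2 scale (edgeR, adjusted p = 0.200). The others were hsa-miR-105-5p, hsa-miR-215-5p and hsa-miR-1292-5p. The median log2 fold change of the 5 was -0.15, against -0.01 over all tested miRs, and they lay on both sides of 0, from -0.24 to 0.20. A match of 5 letters is a description of the sequence and not of a bound site.

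Of the arms of other hairpins linked to DDX5, 6 were tested and 1 was called. The list held 15 arms: miR-199a, miR-105 and miR-215, bound by SMAD proteins, miR-16-1, miR-143 and miR-145, whose cleavage p53 promotes through DDX5, and miR-196b and miR-608, which the study linked to RPL24 and DDX5. Of the 15, 6 passed the filter, 1 rose, 0 fell and 5 were not called in the edgeR test, which called 5.00% of all tested miRs. The median log2 fold change of the 6 was 0.01, against -0.01 over all tested miRs. The hairpins MIR199A1, MIR199A2, MIR105-1, MIR105-2 and MIR215 hold CAGAC, as MIR21 does, while MIR16-1, MIR143, MIR145, MIR196B and MIR608 do not.

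The arm that rose was miR-196b-5p, from a hairpin of the HOXA locus, by 0.37 on the log2 scale (adjusted p = 0.00407, edgeR). The study picked it from these libraries, so that its call is not independent evidence for the list, and it is given only for scale beside miR-21-5p. For each 100 reads of miR-21-5p there were 43.9, 44.2 and 45.9 reads of miR-196b-5p in NC libraries 1, 2 and unnumbered, and 54.4, 50.1 and 53.2 in RPL24 KD. This ratio within a library does not depend on scaling. It was higher in each RPL24 KD library, and the log2 ratio averaged -1.16 ± 0.0345 in NC and -0.93 ± 0.0610 with RPL24 KD (both SD, n = 3), a difference of 0.23. This is a description, since the pair was chosen with the change of miR-196b-5p known.

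The 5 arms that were not called had wide intervals. Nearest to miR-21-5p was miR-16-5p, a growth-restraining miR that MIR16-2 also encodes, with 0.14 on the log2 scale (95% interval from -0.07 to 0.34, adjusted p = 0.426, edgeR). MiR-215-5p, a p53-induced miR, had 0.20 (95% interval from -0.13 to 0.52), and miR-105-5p -0.22 (95% interval from -0.51 to 0.08), with groups that did not overlap, as in 27.5% of all tested miRs. MiR-199a-3p had -0.12, but its counts equal those of hsa-miR-199b-3p in nearly every library, so that the reads of these identical arms cannot be told apart. MiR-143-3p had -0.92 (95% interval from -2.30 to 0.46) with 5, 50 and 18 reads in NC and 11, 15 and 14 in RPL24 KD, and NC replicate 2 stood far above the others. MiR-143 is a marker of stromal cells rather than of HEK293T. The 9 arms that did not pass the filter had at most 14 reads in any library, and miR-143-5p and miR-608 had 0 throughout.

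**Figure D3:**
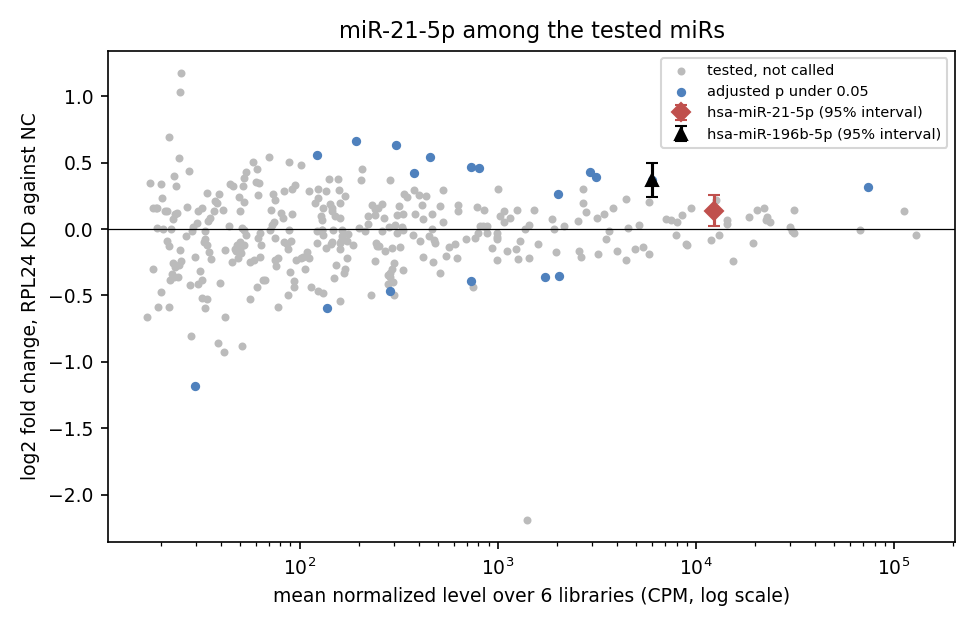
Log2 fold change (RPL24 KD over NC) for the 360 tested miRs over their mean normalized level (log scale); grey points were not called, blue points had an adjusted p under 0.05 in edgeR, and the red diamond (miR-21-5p) and black triangle (miR-196b-5p) carry 95% intervals. MiR-21-5p lay at 0.14 and miR-196b-5p at 0.37.

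**Figure D4:**
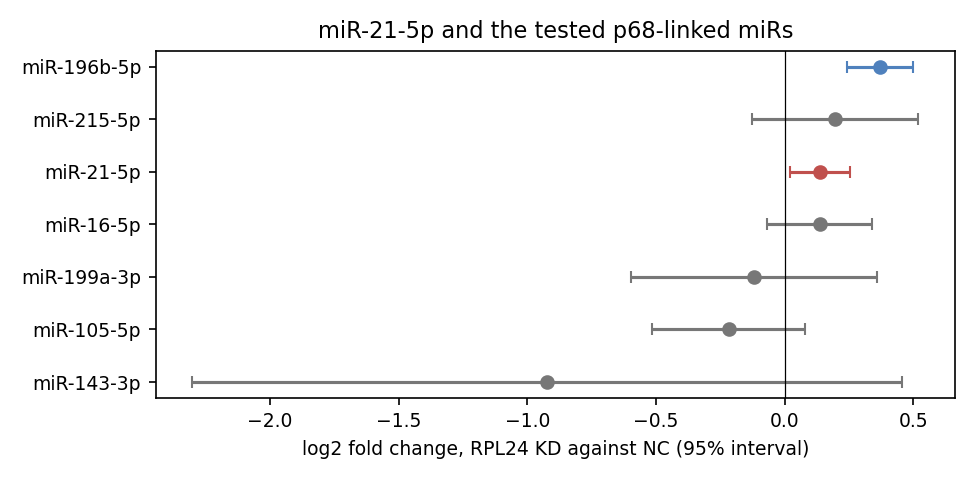
Log2 fold change (RPL24 KD over NC) with 95% intervals from edgeR for miR-21-5p (red) and the 6 tested arms of the DDX5-linked list (blue called, grey not called). The estimates ran from -0.92 for miR-143-3p to 0.37 for miR-196b-5p, and miR-21-5p lay beside miR-16-5p at 0.14.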

How the data were processed

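Small RNA of 6 HEK293T libraries was sequenced. The authors used FastQC for read quality, Flexbar for trimming and miRExpress for alignment to miRBase, and deposited raw read counts per mature miR; how reads matching several miRs were counted is not given in the sources used here. Samples were grouped by their labels. The third column of each group bears a number that no label has and is called unnumbered.

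From the counts, RPL24 KD and NC were compared with edgeR 4.0.16 (R 4.3.3; quasi-likelihood test, TMM, filterByExpr with a minimum count of 10, Benjamini-Hochberg adjustment over all tested miRs, threshold 0.05). Arm ratios paired the arms by the miR name without its arm suffix. They used a pseudocount of 0.5, limma 3.58.1 and exact permutation tests. DESeq2 1.42.0 was an alternative. MiR-21-3p failed the filter, so its values come from fits without the filter. Log2 CPM for likeness used a prior count of 2. The tests were also run on simulated data with larger changes than that of miR-21-5p. This does not show how sensitive they are for the miR-21 arms. RPL24 mRNA is not measured in small RNA libraries. Members and lists were chosen with earlier results of these data known. Named miRs are both arms, seed mates, the DDX5-linked list, the 3 miRs most alike, neighbours in level and neighbours in arm ratio; miR-421 and miR-1292-5p were named after their values were seen.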

Additional observations from a re-analysis of the deposited data

How the results depend on the processing

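The log2 fold change of miR-21-5p stayed above 0 and was not called in any of 16 alternatives, from 0.09 with total counts to 0.15 with DESeq2 under default filtering, with adjusted p-values from 0.0715 to 0.437; it was 0.11 to 0.15 without one library. The difference in arm ratio, 0.17, kept its sign in 11 alternatives, from 0.02 without NC replicate 2 to 0.39 without NC replicate 1. The sign of miR-21-3p was not stable: without one library its log2 fold change was from -0.22 to 0.10, and it turned positive without RPL24 KD replicate 1 (0.012), RPL24 KD replicate 2 (0.089), NC replicate 2 (0.10) or the unnumbered NC library (0.030). The cause was not tested, and 6 to 8 reads limit this arm. With no filter, edgeR called 31 of 1205 miRs (2.57%), and DESeq2 called 14 of the tested miRs, or 15 under default filtering. The 18 called miRs, 5.00% of 360, became 28 with total counts (10 higher, 18 lower), 34 with robust edgeR and 57 under the replicate block. Without one library they were from 0 to 36: 0 without RPL24 KD replicate 1 (56 at an unadjusted edgeR p under 0.05), 8 without RPL24 KD replicate 2 and 36 without the unnumbered NC library. The replicate block, on the 4 numbered libraries, gave 0.12 for miR-21-5p (adjusted p = 0.0715, edgeR) and -0.13 for miR-21-3p. Deviations of same-numbered libraries correlated at -0.03 over 360 miRs, and the numbers were not taken as pairs. With 2 numbered libraries per group, this value cannot exclude pairing. The hairpin fits of the arm ratio with both arms past the filter, or with at least 100 mean counts in both, could not hold miR-21. For miR-21-3p and the arm ratio, the fits that join the missing filter with a further choice, and for the others legacy edgeR and the other scalings of the levels, were chosen after seeing the data.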
